A study of Mus musculus with 32 samples.

Results

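Matrix metalloproteinases (MMPs) and their tissue inhibitors (TIMPs) were followed from the monocyte graft into colonic and ileal macrophages. The 10 genes, Mmp2, Mmp7, Mmp8, Mmp9, Mmp12, Mmp13, Mmp14, Timp1, Timp2 and Timp3, were chosen by their symbols, and all 10 were among the 24148 symbols found in both count tables. The graft (3 libraries) was Cx3cr1GFP/+ monocytes, for which the labels give the transgene Tg[Itgax-DTR/GFP]57Lan on B6.FVB, sorted as CD45+ CD11b+ CD115+ and not treated. The labels give blood as its organ, whereas BM monocytes are described in the study's methods. Recipients were [CD11c-DTR > WT] BM chimeras on C57BL/6J, in which cells that use the Itgax promoter carry the diphtheria toxin (DTx) receptor, and which received DTx every other day at 9-18 ng per gram. From these, graft-derived macrophages were sorted from colon on day 4 (3 libraries), day 8 (3 in the fit) and day 12 (4), and from ileum on days 4, 8 and 12 (4 each). By the study, they were sorted by the donor's CD45 allotype and GFP, and were CD11b+ CD64+ Ly6C-. The study gates resident macrophages as MHCII+ and reports a delayed onset of MHCII expression in engrafted cells. A further 6 libraries came from the colon of DTx-treated [CX3CR1-DTR > WT] BM chimeras, whose day 14 is taken from the study's list of data sets because their labels give none, and that list names fewer libraries for this group than the labels do. The titles of these libraries read gfp only, words that no CD11c-DTR title carries. Chimera recipients were 7 to 10 weeks old when irradiated, and nothing in the labels says that libraries of a group came from separate animals, so p-values measure the spread between these libraries.

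MMPs are zinc proteases that are made as inactive proenzymes and cut collagens, gelatin, elastin and many cell surface proteins, and TIMPs bind their active sites. Most are secreted, whereas Mmp14 (MT1-MMP) sits in the cell membrane, and together with Timp2 it activates pro-Mmp2. In the gut, Mmp7 (matrilysin) is made by Paneth cells of the small intestine, where it processes pro-alpha-defensins, while Mmp9 and Mmp12 are known products of macrophages and Mmp8 of neutrophils.

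Of the 10 genes, 4 lie in 1 cluster of MMP genes on chromosome 9 (mm9 7272514 to 7699416), which holds 10 genes of the family. Mmp13 starts at 7272514, Mmp12 at 7347374, Mmp8 at 7558429 and Mmp7 at 7692111, all on the plus strand. The 250 bases before their RefSeq starts are shown because these neighbours had opposite courses, with Mmp8 high only in the graft and the other 3 detected mainly after engraftment. Sequences are from RefSeq (GRCm38.p6), which had an entry for 8 of the 10 genes and none for Mmp2 and Mmp9. Capitals mark the AP-1 site TGANTCA or the TATA box TATAAA, each searched on both strands, and GGGCGG (GC box) was searched too.
Mmp13, chr9:7272264-7272513, plus strand: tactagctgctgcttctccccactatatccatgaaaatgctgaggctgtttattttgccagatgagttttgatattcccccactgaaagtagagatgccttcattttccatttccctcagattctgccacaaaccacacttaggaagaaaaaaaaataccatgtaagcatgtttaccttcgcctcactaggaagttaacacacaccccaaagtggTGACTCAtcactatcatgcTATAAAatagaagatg
Mmp12, chr9:7347124-7347373, plus strand: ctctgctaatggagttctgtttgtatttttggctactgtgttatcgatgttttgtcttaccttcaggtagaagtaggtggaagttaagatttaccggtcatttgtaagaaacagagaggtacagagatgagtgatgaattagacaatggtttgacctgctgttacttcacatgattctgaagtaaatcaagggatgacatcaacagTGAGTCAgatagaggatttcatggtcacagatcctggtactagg
Mmp7, chr9:7691840-7692089, plus strand: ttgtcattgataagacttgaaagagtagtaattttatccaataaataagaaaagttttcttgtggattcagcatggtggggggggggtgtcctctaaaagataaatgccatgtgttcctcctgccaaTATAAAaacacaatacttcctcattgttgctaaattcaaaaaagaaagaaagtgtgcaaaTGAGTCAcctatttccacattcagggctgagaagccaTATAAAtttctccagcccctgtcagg
Mmp8, chr9:7558179-7558428, plus strand: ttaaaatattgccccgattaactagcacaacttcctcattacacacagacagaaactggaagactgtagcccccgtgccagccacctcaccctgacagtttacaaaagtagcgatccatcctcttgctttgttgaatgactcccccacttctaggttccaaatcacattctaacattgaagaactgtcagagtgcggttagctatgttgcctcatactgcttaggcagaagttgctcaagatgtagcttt
The AP-1 site began 35 bases before the start in Mmp13, 44 in Mmp12 and 63 in Mmp7, each counted from the base after the window shown, which for Mmp7 is not the mm9 start given above, and Mmp8 had no match to any of the 3 motifs in this window. Mmp7 and Mmp12 have 2 RefSeq starts each, and the window with a match is shown. Of all 32851 RefSeq promoter windows of this length, 6.75% held the AP-1 site, 12.4% the TATA box and 32.7% the GC box. Mmp14 had 2 GC boxes, and Timp1, Timp2 and Timp3 had 1 each. The motifs shown do not overlap, and a match describes the letters and not the binding of a factor.

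The CD11c-DTR libraries held between 591817 and 5228664 reads on genes, and those of CX3CR1-DTR recipients 1223772 to 4218027. Levels are normalized reads, which are counts per 10000000 mapped reads, and the floor of 3 counts equals 3.51 to 27.6 normalized reads. Errors are SD over libraries unless an SE is named, and folds are ratios of mean levels, whereas tests are of edgeR's quasi-likelihood fit on the log2 scale. A gene was tested if 3 or more libraries reached 50 normalized reads, which 9 of the 10 genes did (Timp1 did not). The macrophage label held in part: 10 of 11 listed macrophage markers were measured and each was above the floor in some library of every macrophage group, with sums of 4015 to 22660 in colon, 10280 to 105772 in ileum and 9462 to 12007 in the graft. The colon sums were thus no higher than those of the graft in most libraries, with Cd68 at 109 to 483 in colon against 2056 to 2885 in the graft and C1qa at 1262 to 7735 against 14.5 to 39.3. The 12 epithelial markers summed to 114466 to 169440 in colon, 21675 to 131323 in ileum and 36.3 to 67.4 in the graft. The Paneth cell markers, 13 without Lyz1, which monocytes express, summed to 571 to 8790 in colon, 7222 to 449483 in ileum and 2.81 to 17 in the graft. The part that transcripts of other cells had in the levels of MMPs and TIMPs was not tested beyond the values given here. Experiments 1 to 3 were inferred from the dates in the titles, which for macrophages were read as collection dates, less the day after transfer. The title of ileum day 8 replicate 2 carries a year that does not match. It was read as a slip, and the library was placed in experiment 3. One colon day 8 library, of experiment 1, is outside the columns the study lists and was left out of the fit.

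**Figure D1:**
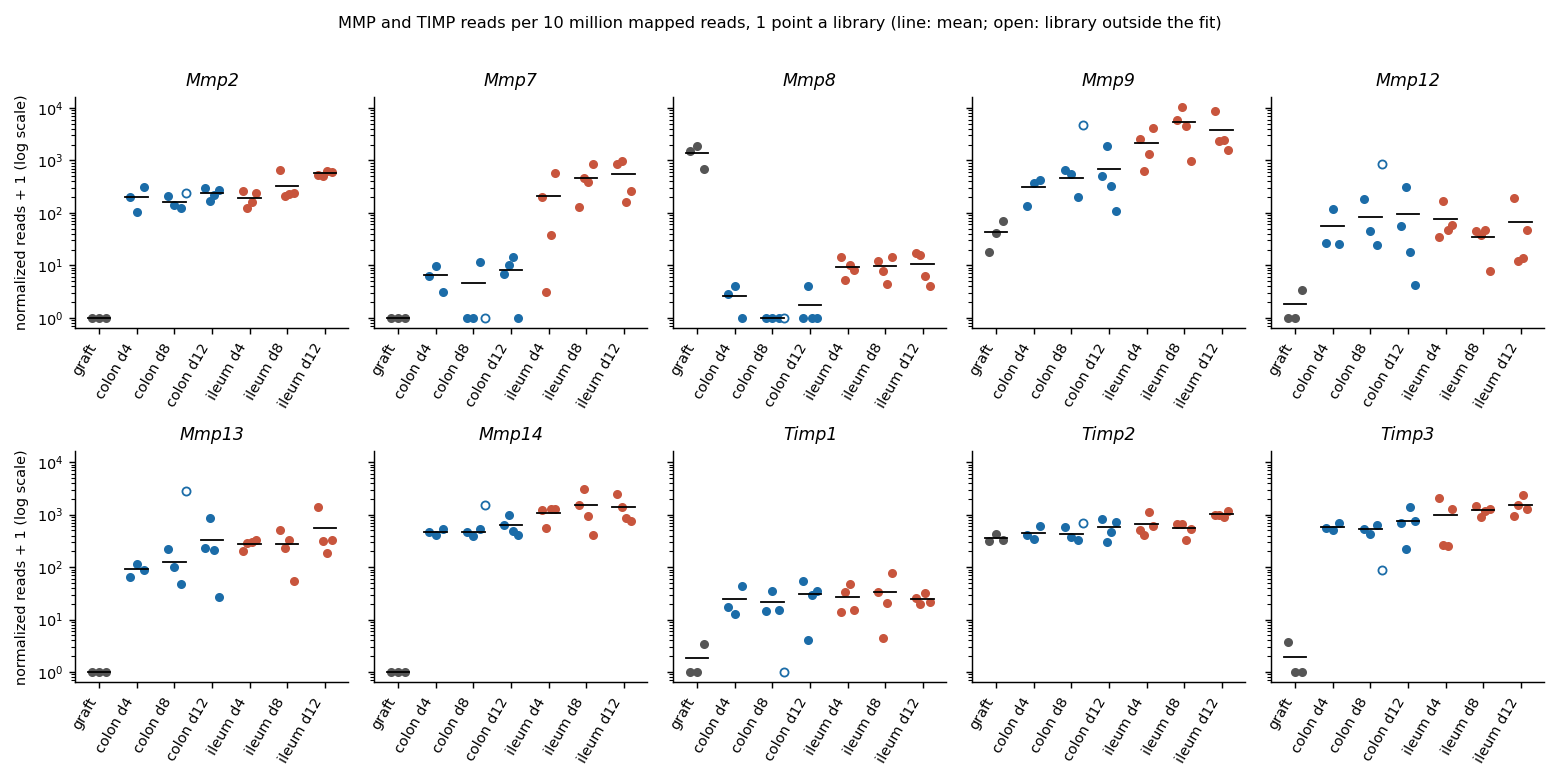
Normalized reads (per 10000000 mapped reads, log scale of reads plus 1) of each of the 10 genes in every CD11c-DTR library of the fit, by group; filled points are libraries, lines the group means and open points the colon day 8 library outside the fit. Mmp8 is high in the 3 graft libraries only, whereas Mmp2, Mmp13 and Mmp14 are at 0 there and above the floor in all 22 engrafted libraries.

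The first question was which of these genes change as the graft becomes gut macrophages. Mmp8, the neutrophil collagenase, fell to or near the floor, while Mmp2, Mmp9, Mmp12, Mmp13, Mmp14 and Timp3 rose in both segments on each of the 3 days. Mmp7 rose in the ileum and did not pass in the colon, and Timp2 rose in the ileum from day 4 and in the colon on day 12. In the colon 6 of 9 genes tested rose on days 4 and 8 and 7 on day 12, where 35.9%, 35.2% and 37.7% of all genes did. In the ileum 8 rose on each day, against 36.2%, 34.3% and 35.9% of all genes. The 1 gene that fell, Mmp8, is set beside 24.5%, 23.9% and 24.9% of genes lower in the colon and 20.5%, 19.5% and 20.0% in the ileum. These shares are high for all genes because the graft and the engrafted libraries differed widely, and genes at 0 in the graft reach the filter only through the engrafted groups.

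Mmp8 had 1527, 1866 and 678 normalized reads in the graft. In colon 0 of 10 libraries and in ileum 5 of 12 exceeded the floor, with a highest level of 3.114 in colon and 15.9 in ileum, so that no engrafted library came near the graft. In counts, 1787 reads in the graft stood against 1 read in colon on day 12, a ratio of 3145 after depth (95% exact interval 564 to 124298). The difference was a log2 change of -10.46 ± 0.67 (SE, edgeR adjusted p = 5e-11) in colon and -6.71 ± 0.51 (adjusted p = 7.2e-10) in ileum on day 12. The graft also held neutrophil markers, with a sum of 7070 to 10869 over 10 genes against 136 to 1278 in engrafted CD11c-DTR libraries, and Mpo and Elane at 188 to 702 and 234 to 615 were at 0 in every engrafted library. The 5 monocyte markers fell too, from sums of 35760 to 42826 in the graft to 1931 to 8219 in engrafted CD11c-DTR libraries. The study lists Mmp8 among hallmark monocyte markers. The part of neutrophil or monocyte transcripts in the level of Mmp8 was not tested. In bulk samples fewer cells of a type and less RNA per cell cannot be told apart.

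Mmp9 (gelatinase B), which cuts denatured collagen and basement membrane collagen, was the gelatinase already present in the graft, at 16.8, 40.7 and 67.8 normalized reads. In colon it was 134, 377 and 427 on day 4, then 648, 553 and 198, and 506, 1859, 328 and 107 on day 12. In ileum it was 2542, 628, 1346 and 4208 on day 4, 5942, 10380, 4484 and 969 on day 8, and 8626, 2323, 2506 and 1570 on day 12. Every engrafted library was above the highest graft library. The ratio to the graft mean was 7.48, 11.2 and 16.8 in colon and 52.2, 130 and 89.9 in ileum on days 4, 8 and 12. The log2 change on day 12 was 4.33 ± 0.97 (SE, adjusted p = 0.00049) in colon and 6.95 ± 1.08 (adjusted p = 9.6e-06) in ileum. A single colon library, replicate 2 of day 12, held most of the reads of its group, and its macrophage sum of 22660 was also the highest of the colon libraries in the fit.

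Mmp2 (gelatinase A) was at 0 in all 3 graft libraries. It reached 199, 104 and 309 normalized reads in colon on day 4, 213, 138 and 122 on day 8, and 298, 165, 216 and 270.5 on day 12. In ileum it was 258, 122, 157 and 242 on day 4, 645, 212, 228 and 241 on day 8, and 530, 500, 637 and 611 on day 12. The lowest engrafted library was thus well above its floor, and the ileum of day 12 stood above all but 1 of the other engrafted libraries. Against the floor of the graft, Mmp2 was at least 33.1-fold higher in colon and at least 79.4-fold higher in ileum on day 12 (adjusted p = 3.8e-09 and 5.4e-10).

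Mmp14, the membrane protease that activates pro-Mmp2, was likewise at 0 in the graft. Its level was 473, 412 and 525 in colon on day 4, 469, 394 and 524 on day 8, and 631, 987, 491 and 417 on day 12, a spread of less than 3-fold over the colon libraries. In ileum it was 1248, 561, 1263 and 1305 on day 4, 1559, 3118, 940.4 and 415 on day 8, and 2447, 1428, 853 and 773 on day 12. Both segments held Mmp14 above the floor in every library. It was at least 65.6-fold higher than the graft in colon and at least 153-fold higher in ileum on day 4 (adjusted p = 2.1e-08 and 3.1e-09), and at least 88.1-fold and 192-fold higher on day 12.

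Mmp13 (collagenase 3), which cuts fibrillar collagen, was at 0 in the graft and at 64.5, 116 and 87.4 normalized reads in colon on day 4 and 219.5, 99.2 and 46.8 on day 8. In ileum it was 205, 290.3, 295 and 328 on day 4 and 499, 233, 331 and 54.4 on day 8, so that the segments did not overlap on day 4 and did on day 8. On day 12 it was 235.5, 869, 207 and 26.4 in colon and 1374, 319.5, 185 and 322 in ileum. These values show 1 high library in each group, colon replicate 2 and ileum replicate 1, which also had the highest macrophage sums of their groups (22660 and 105772). The least change that the floor allows was 46.7-fold in colon and 76.8-fold in ileum on day 12 (adjusted p = 3.6e-05 and 1.3e-05).

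Mmp12 (macrophage elastase) was low and uneven. The graft had 1 read in all, and colon libraries had 25.1, 116 and 24.4 normalized reads on day 4, 179, 44.4 and 23.4 on day 8, and 54.5, 305, 17.1 and 3.3 on day 12. Ileal libraries had 33, 164, 46.1 and 57.1 on day 4, 43.4, 37.1, 46.9 and 6.8 on day 8, and 195, 11.3, 13 and 45.8 on day 12. Colon and ileum overlapped on each day. The ratio of counts to the graft on day 12 was 80.7 (95% exact interval 14.2 to 3209) in colon and 90.8 (16 to 3616) in ileum, with adjusted p of 0.0027 and 0.004. With an equal-variance test per gene Mmp12 did not pass on days 4, 8 and 12 in colon (adjusted p = 0.101, 0.106 and 0.243) or on days 4 and 12 in ileum (0.0505 and 0.193). The call of colon day 4 (adjusted p = 0.0091) was lost without colon replicate 2 (0.0528), and that of ileum day 8 (0.02) without graft replicate 1 or 2 (0.0587 and 0.0753).

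Mmp7 was at 0 in the graft and stayed at or near the floor in colon, where 2 of 10 libraries exceeded it and the highest level was 13.4. The ileum differed: 198, 2.13, 36.9 and 585 normalized reads on day 4, 130, 462, 392 and 863 on day 8, and 865, 958, 159 and 256 on day 12. The ileal library with 2.13 reads and the one with 36.9 are the 2 libraries of experiment 1 on day 4. By day 12 Mmp7 was at least 78.1-fold above the floor of the graft in ileum (adjusted p = 4.8e-05), and in colon its change was not past the test (adjusted p = 0.17). With DESeq2 that change in colon passed (adjusted p = 0.0212). Over the 22 engrafted libraries, Mmp7 and the Paneth cell sum, here with Lyz1, had a Pearson r of 0.96 (Spearman rho 0.89) on the log2 scale of reads plus 50, points that share library, segment and depth. The 3 genes with the pattern most like Mmp7 over 25 libraries were the defensin gene Defa26 (r = 0.975), Gm15292 (0.975) and Gm14851 (0.964). Whether Mmp7 reads came from the sorted cells or from Paneth cell transcripts in the preparation was not tested.

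Among the inhibitors, Timp3, which binds to matrix and also inhibits ADAM proteases, changed most from the graft, where 1 read was counted in 3 libraries. In colon it had 545, 504 and 704 normalized reads on day 4, 523, 433 and 644 on day 8, and 685, 218, 1417 and 762 on day 12. In ileum it had 2080, 269, 249 and 1284 on day 4, 1458, 897, 1198 and 1275 on day 8, and 937, 1556, 2418 and 1303 on day 12. All engrafted libraries were far above the graft, and the low pair in ileum on day 4 was again experiment 1. Endothelial markers followed the same split there, with sums of 186 and 184 in that pair and 4890 and 2817 in the other 2 libraries. Over 22 engrafted libraries Timp3 had r of 0.88 with the endothelial sum and 0.76 with the smooth muscle sum, against 0.34 with the macrophage sum. The log2 change from the graft on day 12 was 9.78 ± 1.11 in colon and 10.84 ± 1.11 in ileum (SE, adjusted p = 7.8e-08 and 2.9e-08).

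Timp2, which inhibits MMPs and also serves in the activation of pro-Mmp2, was well above the floor both before and after engraftment. The graft had 317, 434 and 327 normalized reads, and the colon had 409, 338 and 616 on day 4, 588, 373 and 322 on day 8, and 841, 302, 463 and 736 on day 12. The ileum had 515, 406, 1115 and 599 on day 4, 670, 667.5, 321 and 527 on day 8, and 1001, 966, 910 and 1168 on day 12. Only the ileum of day 12 lay clear of the graft, by a ratio of 2.81 (log2 change 1.98 ± 0.38, SE, adjusted p = 0.00011). On colon day 12, where the ratio was 1.63 and 1 library was below the graft, the test passed (log2 change 1.04 ± 0.37, adjusted p = 0.017) but did not with library totals in place of TMM scaling (adjusted p = 0.0876) or without graft replicate 1, graft replicate 3 or colon replicate 4 (0.0584 to 0.0842). Ileum day 8 passed with TMM (adjusted p = 0.011) but not with totals (0.145) or without graft replicate 1 (0.0528). Scaling matters here because the median of all genes moved: with TMM it was 0.24 for colon day 12 and 0.22 for ileum day 12, and with totals -0.10 and -0.25.

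Timp1, the inducible inhibitor of secreted MMPs, had 1 read in the graft and stayed low, with a median of 22.08 normalized reads over 10 colon libraries (3.114 to 52.55) and 22.8 over 12 ileal libraries (3.37 to 74.8). It was below the filter and has no test. The ratio of counts to the graft on day 12 was 40.9 (95% exact interval 7.11 to 1638) in colon and 30.5 (5.19 to 1234) in ileum, and the colon and ileum ranges overlapped.

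The next question was whether colonic and ileal macrophages differ. The study already names Mmp9 as an example of its cluster of genes found only or mainly in ileal macrophages. That clustering covered the graft, engrafted cells and resident macrophages. Each gene that passed was lower in colon: 1 of 9 on day 4 (Mmp7), 5 on day 8 (Mmp2, Mmp7, Mmp8, Mmp9 and Mmp14) and 6 on day 12 (the same 5 and Timp2). Of all genes, 2.66%, 18.3% and 17.2% were lower in colon on these days and 0.524%, 16.8% and 15.3% higher, and 0 of the 9 were higher. Mmp7 met the filter only through the ileum, where it is high, and Mmp8 only through the graft, so these counts include members that the filter let in through 1 group. Mmp9 had 466 ± 237 reads in colon (n = 3) and 5444 ± 3897 in ileum (n = 4) on day 8, a ratio of 11.7 (log2 difference of colon minus ileum -3.76 ± 0.90, SE, adjusted p = 0.0031). The groups did not overlap, but with an equal-variance test per gene Mmp9 did not pass on day 8 (adjusted p = 0.0773) or day 12 (0.093). On day 12 it was 700 ± 790 against 3756 ± 3272 (n = 4 each, -2.62 ± 0.76, adjusted p = 0.011), and colon replicate 2 lay within the ileal range. Without ileum replicate 1 of day 12 the call was lost (-1.73, adjusted p = 0.0761), and on day 4 a call was gained with the experiment as a block (-2.80, adjusted p = 0.0448) and without the ileum libraries of experiment 1 (-3.44, adjusted p = 0.00784). With the left-out colon library, which had 4717 reads of Mmp9, the day 8 difference did not pass (-1.72, adjusted p = 0.169).

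Mmp14 was lower in colon by -1.89 ± 0.48 on day 8 and -1.28 ± 0.43 on day 12 (log2 difference, SE, adjusted p = 0.0051 and 0.026). With the left-out colon library the day 8 difference did not pass (-1.05, adjusted p = 0.142). With an equal-variance test per gene Mmp14 did not pass on day 8 (adjusted p = 0.248) or day 12 (0.163). On day 8, 1 of 3 colon libraries was below the lowest ileal library, and on day 12 it was 3 of 4. Mmp14 on day 12 lost its call with library totals (adjusted p = 0.0634) and without ileum replicate 1 (0.164) or any of colon replicates 1, 3 and 4 (0.068 to 0.0742). Mmp2 was lower in colon by -1.40 ± 0.39 on day 8 and -1.39 ± 0.34 on day 12 (adjusted p = 0.009 and 0.0043). All 4 colon libraries of day 12 lay below all 4 ileal ones, at 237 ± 59 against 569 ± 65. On day 8 the call rested on ileum replicate 1 and colon replicate 4, without which the adjusted p was 0.0553 and 0.0532, and Mmp2 did not pass with an equal-variance test (adjusted p = 0.252).

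Mmp7, which met the filter only through the ileum, showed the widest gap of the 10 genes between segments, 7.15 ± 5.68 in colon against 559 ± 410 in ileum on day 12 (log2 difference -6.28 ± 1.11, adjusted p = 0.00057), and the groups did not overlap on days 8 and 12. On day 4 it passed narrowly (-5.25 ± 1.37, adjusted p = 0.044), with 1 of 3 colon libraries below the lowest ileal one, and lost the call with library totals (0.0503) and without any 1 of the 3 colon libraries or of ileum replicates 1 and 4 of that day (0.0939 to 0.175). Leaving out any of 6 libraries of other groups, namely graft replicates 2 and 3, colon day 8 replicates 3 and 4, ileum day 8 replicate 3 and ileum day 12 replicate 4, gave 0.0507 to 0.0528. Mmp8 passed on days 8 and 12 at levels near the floor, 15 reads in ileum against 1 in colon on day 12 (ratio 19.2, 95% exact interval 2.95 to 808). Timp2 was lower in colon on day 12 only (585 ± 247 against 1011 ± 111, -0.94 ± 0.33, adjusted p = 0.033), a call lost with library totals (0.0674) and without colon replicate 2 or 3 or ileum replicate 1 or 4 of that day (0.0598 to 0.108). Timp3 was 533 ± 106 in colon and 1207 ± 234 in ileum on day 8 without overlap, with adjusted p of 0.052 and of 0.0379 with the experiment as a block. Mmp12 and Mmp13 did not pass on any day, although Mmp13 on day 12 passed without colon replicate 2 (-2.01, adjusted p = 0.0381), and Mmp12 means were 82.2 ± 84.4 in colon and 33.5 ± 18.3 in ileum on day 8.

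Within single experiments the direction could be read where both segments were present, which was experiment 2 on day 4, experiments 2 and 3 on day 8 and all 3 on day 12. Mmp9 was higher in ileum in each of these 6 pairs, by ratios of 12, 8.04, 15.1, 4.59, 5.09 and 14.6. Mmp14 was too, by 2.56, 2.66, 3.85, 2.26, 2.23 and 1.85, and Timp3 by 1.71 to 2.69. Mmp2 was level on day 4 (0.984) and higher in ileum in the other 5 pairs, by 1.68 to 3.07. Mmp13 was higher in ileum in each of the 6 pairs, by 1.36 to 12.2, although it did not pass the test. Mmp12 was higher in colon in 4 of 6 pairs. Timp1 was higher in colon in experiment 2 on day 4 and in experiments 1 and 3 on day 12, and Timp2 in experiment 2 on day 8. Mmp7 and Mmp8 were higher in ileum in each pair. The pairs reuse the libraries of the fit, and some have only 1 library on a side. The share of all genes that were higher in ileum in every pair was not computed.

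**Figure D2:**
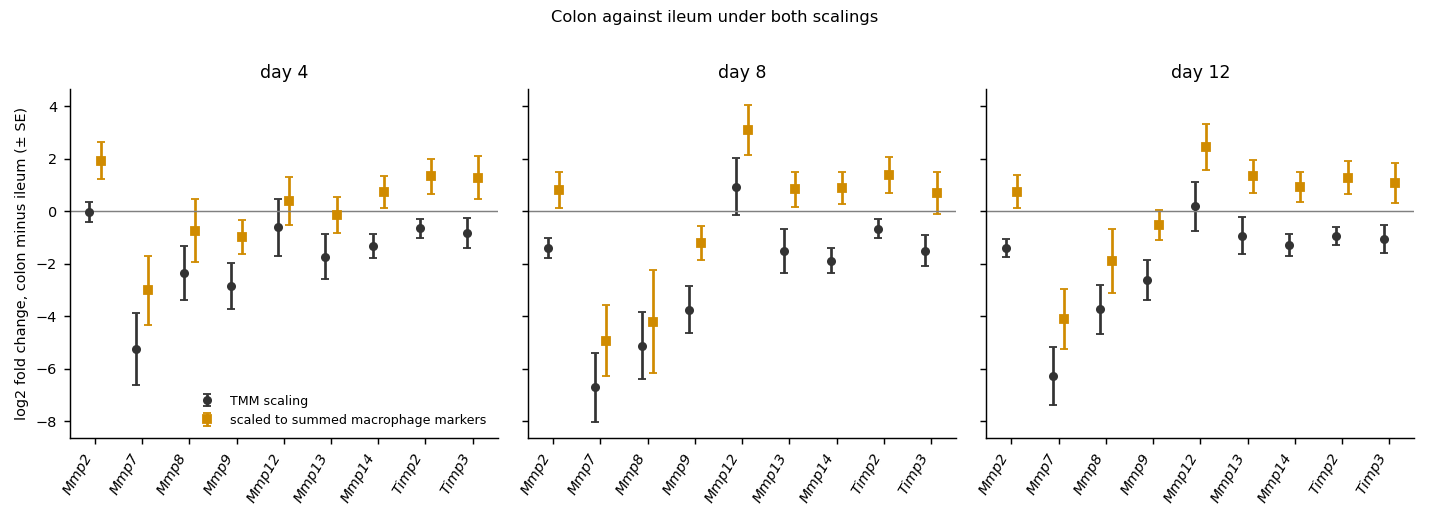
Log2 difference of colon minus ileum with its SE for each gene tested on days 4, 8 and 12, from the fit with TMM scaling and from the fit scaled to the summed macrophage markers. With TMM the genes that passed lie below 0, and scaled to macrophage markers Mmp2, Mmp14, Timp2 and Timp3 lie above 0 on each day while Mmp7 and Mmp9 stay below it, where the median of all genes is 1.75, 2.25 and 2.06.

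The macrophage sum itself was higher in ileum, with medians of 32462, 51993 and 35130 against 9956, 9209 and 9742 in colon, and epithelial transcripts were the more abundant in colon. The comparison was therefore repeated with the summed macrophage markers as library size, a setting chosen after the data were seen. It moved the median log2 difference of all genes from -0.04, -0.05 and -0.01 to 1.75, 2.25 and 2.06 on days 4, 8 and 12, with 94.5%, 92.6% and 93.3% of genes above 0 and 58.0%, 75.1% and 77.0% past the test in either direction. The members moved with all genes, so that a change of sign or a call under this scaling is no result about a member. Mmp9 was at -0.99, -1.22 and -0.53 and Mmp7 at -3.01, -4.94 and -4.10, whereas Mmp2 was at 1.93, 0.82 and 0.75 and Mmp14 at 0.74, 0.89 and 0.92. As levels per 1000 macrophage marker reads, Mmp12 on day 8 was 4.39 to 9.21 in colon and 0.465 to 1.05 in ileum, and Mmp9 on day 12 was 48.2 ± 29.2 in colon and 69.7 ± 20.3 in ileum (two-sided exact permutation test, p = 0.371, smallest possible 0.0286).

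**Figure D3:**
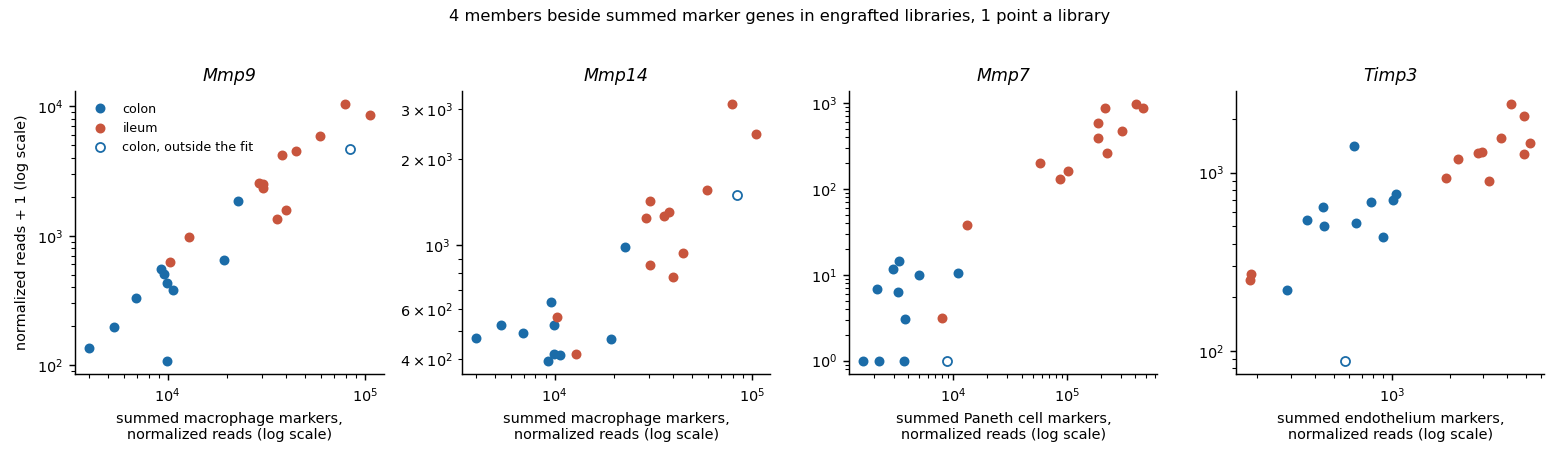
Level of 4 genes against the summed level of a marker list in each of the 22 engrafted libraries (normalized reads, log scales), colon and ileum in different colours, with the colon library outside the fit as an open point and Lyz1 among the Paneth cell markers. Mmp9 and Mmp14 follow the macrophage sum (r of 0.94 and 0.87), Mmp7 the Paneth cell sum (0.96) and Timp3 the endothelial sum (0.88).

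Across the 22 engrafted libraries, marker sums moved together and several members followed more than 1 of them. The r with the macrophage sum was 0.94 for Mmp9, 0.87 for Mmp14, 0.73 for Mmp13, 0.71 for Mmp7, 0.65 for Mmp8, 0.54 for Mmp2, 0.50 for Timp2, 0.34 for Timp3, 0.23 for Mmp12 and -0.22 for Timp1. Mmp9 also had 0.81 with the Paneth cell sum and 0.80 with the B cell sum, Mmp7 0.88 with the T cell sum, and Timp3 0.79 with the dendritic cell sum. Mmp2 had its highest r with the endothelial sum (0.71). These r describe libraries that share segment, experiment and depth, and the sums differ between segments. By pattern over all 25 libraries, the genes most like Mmp14 were the complement genes C1qa (r = 0.970) and C1qc (0.965) with Sash1 (0.964). Those most like Mmp13 were Bcl2a1d (0.930), Il1b (0.923) and Bcl2a1b (0.916), and Bcl2a1d and Bcl2a1b are near-identical copies whose reads may be split. For Timp3 they were Igfbp7 (0.971), Sparc (0.965) and Sparcl1 (0.961), for Mmp9 Adgrg5 (0.988), Apol7c (0.977) and Ocstamp (0.976), and for Mmp2 Socs3 (0.920), Adamdec1 (0.913) and Tns1 (0.909). Genes near Mmp8 by pattern included Gapt and Serpinb10 (0.994 each). Timp2 and Mmp12 had no close match, with best r of 0.773 (Chpf), 0.769 (C4b) and 0.749 (Itgav), and of 0.763 (Tnfsf15), 0.743 (Rasgef1b) and 0.737 (Pvt1).

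No member passed between consecutive days in either segment. Over all genes the percentage that passed was 0 in colon from day 4 to day 8 and from day 8 to day 12, and it was 5.17% and 0 in ileum. At an unadjusted p under 0.05 there were 204, 329 and 796 genes in the 3 comparisons without a call, and DESeq2 called 0 in each. The 2 members at an unadjusted p under 0.05 were Mmp2 in ileum from day 4 to day 8 (195 ± 65.8 to 332 ± 209, of which replicate 1 held 645) and Timp2 in ileum from day 8 to day 12 (546 ± 164 to 1011 ± 111). The interaction of segment and time passed for 0% of genes in both intervals, with 1473 and 495 genes at an unadjusted p under 0.05 and 138 and 0 called by DESeq2. Of the members, Mmp2 alone was under 0.05 unadjusted, from day 4 to day 8 (-1.37 ± 0.54, adjusted p = 0.3).

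**Figure D4:**
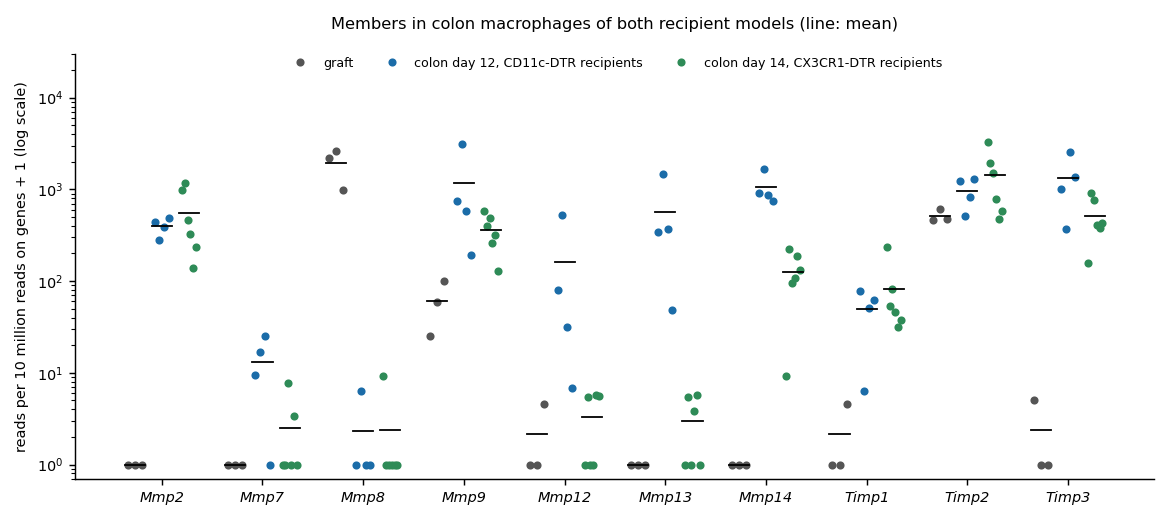
Reads per 10000000 reads on genes (log scale of reads plus 1) of each gene in the graft, colon day 12 of CD11c-DTR recipients and colon of CX3CR1-DTR recipients; points are libraries and lines the means. Mmp12 and Mmp13 are near 0 in all 6 CX3CR1-DTR libraries and Mmp14 is below all 4 CD11c-DTR libraries.

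The last question was whether colonic macrophages that arose in CX3CR1-DTR recipients carry the same genes. For this comparison levels are per 10000000 reads on genes, and a call needed a 2-fold change as well. Recipient model, day, sequencing run and the sort that the CX3CR1-DTR titles give as GFP only cannot be told apart. From the graft, 6 of the 8 genes tested rose (Mmp2, Mmp9, Mmp14, Timp1, Timp2 and Timp3) and Mmp8 fell, against 34.2% of all genes higher and 32.7% lower. Mmp2 had a median of 393 reads (138 to 1160) against 0 in the graft, at least 53-fold higher (adjusted p = 1.1e-05). Timp1, which was tested here, had a median of 49.1 (30.8 to 237) against 1 read in the graft, a ratio of counts of 53.9 (95% exact interval 9.44 to 2154, adjusted p = 0.00048).

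Set against colon day 12 of CD11c-DTR recipients, Mmp13, Mmp14, Mmp9 and Timp3 were lower and 0 of 8 members higher, where 32.7% of all genes were lower and 12.6% higher. Mmp13 had 345, 1475, 369 and 46.9 reads in CD11c-DTR colon and 0, 4.39, 0, 2.85, 4.74 and 0 in CX3CR1-DTR colon. The groups lay apart, and the log2 change was -7.52 ± 0.98 (SE, adjusted p = 2.7e-05), but Mmp13 met the filter of this fit only through the CD11c-DTR colon libraries. Mmp14 had 923, 1676, 875 and 741.5 against a median of 120 (8.17 to 224), again without overlap (-3.04 ± 0.44, adjusted p = 7.4e-05). Mmp12 was below the filter, with 79.8, 518, 30.4 and 5.86 in CD11c-DTR and at most 4.74 in CX3CR1-DTR colon. The macrophage sum on this scale was 12375 to 38465 in CD11c-DTR and 11632 to 25871 in CX3CR1-DTR colon, but its genes did not move together. Adgre1, which encodes the macrophage marker F4/80, was 191 to 909 in CD11c-DTR and 4.55 to 20.4 in CX3CR1-DTR colon, Mrc1 was 296 to 951.5 and 0 to 57.2, and Cx3cr1 was 225 to 1036 and 52.2 to 139. C1qa was 3766 to 13130 and 4323 to 8082. Cd68 was the other way by median (498 in CD11c-DTR and 845 in CX3CR1-DTR colon, ranges 237 to 772 and 660 to 2035), as was C1qc (2345 and 3833). Csf1r, Fcgr1 and Mertk had lower medians in CX3CR1-DTR colon, and C1qb was nearly level (4482 and 4467). Apart from Adgre1, Mrc1 and Cx3cr1, the ranges of the macrophage markers overlapped. The part of these differences between the libraries in the levels of MMPs and TIMPs was not tested. Mmp9 (1168 ± 1345 against 361 ± 163, -1.72 ± 0.60, adjusted p = 0.022) lost its call without colon day 12 replicate 2 (-0.54, adjusted p = 0.355), and Timp3 (1313 ± 905 against 508 ± 280, -1.43 ± 0.48, adjusted p = 0.018) lost it without replicate 3 (-0.86, adjusted p = 0.127). Mmp2 (395 ± 86.2 and 549 ± 421), Timp1 (48.4 ± 30.8 and 80.7 ± 78.6) and Timp2 (969 ± 370 and 1434 ± 1082) did not pass, and each spread over more than 6-fold among the CX3CR1-DTR libraries. Mmp7 had 2 reads over the 6 CX3CR1-DTR libraries and 17 over the 4 of CD11c-DTR colon, a ratio of 9.44 after depth (95% exact interval 2.24 to 84.2).

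Of 17 further genes, MMPs and Timp4, 6 passed the filter. Mmp10, Mmp11 and Mmp23 met it only through the ileum and Timp4 only through the colon. Their tests between segments are thus of genes that the filter let in through the segment where they are high. Mmp15, a membrane-type MMP, was at 0 in the graft and higher in colon than ileum, 308 ± 84.5 against 61.9 ± 15.9 on day 12 (log2 difference 2.19 ± 0.45, adjusted p = 0.0014). Scaled to reads on genes, it was 419 to 624 in CD11c-DTR colon on day 12 and 1979 ± 294 in CX3CR1-DTR colon. Timp4 ran the same way (32.9 ± 16.4 against 6.15 ± 2.97, adjusted p = 0.025). Mmp10 (stromelysin 2), a member of the cluster on chromosome 9, had the opposite direction, 9.81 ± 7.3 in colon and 431 ± 321 in ileum (-5.68 ± 1.18, adjusted p = 0.0014). Ileum day 12 replicate 1 had 0 reads of Mmp10, below every colon library of that day, and the other ileal libraries had 759, 556 and 410. Mmp23 was 28.2 ± 20.3 and 111 ± 103 (adjusted p = 0.011), with ileal replicates 3 and 4 (31.2 and 41.4) inside the colon range (6.23 to 47.8). Mmp11 rose from 0 in the graft to between 3.114 and 29.2 in colon and to 49.8 ± 26 in ileum on day 12, and was lower in colon on day 8 (log2 difference -2.42 ± 0.79, adjusted p = 0.022) but not past the test on day 12 (adjusted p = 0.099). On day 8 ileum replicate 1 had 105.7 reads of Mmp11, the other ileal libraries 17 to 23.6 and the colon libraries 7.83 to 13.5. Mmp19 was the one that fell, from 133 ± 36 in the graft to 49.6 ± 12.8 in colon (adjusted p = 0.046), and was 97.5 ± 50.4 in ileum (adjusted p = 0.93).

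Other genes of the pathway were counted from lists, to be read against 37.7% of all genes higher and 24.9% lower in colon and 35.9% and 20.0% in ileum on day 12. From graft to day 12, 24 of 27 matrix proteins tested rose in each segment, with medians of log2 change of 7.67 in colon and 9.12 in ileum (4.81 and 6.03 with genes at 0 set to their floor), where all genes had 0.24 and 0.22. Dcn, Bgn, Col3a1 and Col18a1 were at 0 in the graft and 876 ± 671, 557 ± 383, 581 ± 501 and 207 ± 130 in colon on day 12. Col3a1 and Dcn are also on the fibroblast list of 9 markers, whose sum was 532.5 to 5152 in colon and 353 to 5811 in ileum on day 12. Of 14 activators, inhibitors and binding partners of MMPs tested, 4 rose in each segment, and 9 fell in colon and 5 in ileum. The neutrophil serine proteases Elane and Ctsg, which can activate proMMPs, went from 467 ± 204 and 714 ± 280 in the graft to 0 in colon on day 12, and Prtn3 from 2644 ± 932 to 2.06 ± 1.77. Pcsk5, a proprotein convertase, rose to 155 ± 39.3 in colon.

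In the ADAM and ADAMTS list, 6 of 13 rose and 4 fell in colon and 7 rose and 1 fell in ileum on day 12, where 37.7% and 35.9% of all genes rose. Adamdec1, a macrophage and stromal protease of the gut, was at 0 in the graft, 1561 ± 766 in colon and 6871 ± 2288 in ileum (colon minus ileum -2.32 ± 0.40, adjusted p = 0.00049). The plasminogen system, which activates several proMMPs through plasmin, had 4 of 8 higher in each segment and 2 lower in colon and 3 in ileum. Plat (tissue plasminogen activator) reached 33.2 ± 13.4 in colon and 174 ± 104 in ileum, and the plasminogen receptor Plgrkt rose from 231 ± 9.55 to 845 ± 84.6 and 641 ± 126. Of 17 cathepsins and cystatins, 2 rose and 7 fell in colon, and 6 rose and 3 fell in ileum, the latter near the shares of all genes. Ctsf rose from 5.81 ± 5.13 to 84.8 ± 22 in colon and 139 ± 87 in ileum, while Ctse fell from 1576 ± 347 to 509 ± 165 and 76.3 ± 34.8.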

How the data were processed

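Macrophages and graft monocytes were profiled by a 3' RNA-seq method derived from MARS-seq in 32 libraries. Per the study's methods, the authors aligned reads with HISAT 0.1.6 to mm9 and kept unique reads, and the deposited values are raw counts per gene made with HOMER over exons of the sense strand. The CX3CR1-DTR file also held 52 columns with no matching label, which were not used, and columns were otherwise matched to samples by title. Counts were divided by mapped reads (by reads on genes for CX3CR1-DTR comparisons) and multiplied by 10000000. Genes that reached 50 normalized reads in 3 or more libraries were tested, 11842 in the CD11c-DTR fit of 25 libraries and 11751 in the CX3CR1-DTR fit, with edgeR 4.0.16 in R 4.3.3 (TMM, quasi-likelihood test, Benjamini-Hochberg, threshold 0.05), after the script was tested on simulated data. Group comparisons used contrasts of 1 fit, where the study used Student's t, and all p-values of the fit are two-sided. A group at 0 was set to 3 counts per library, averaged over the group, for "at least" folds. Exact intervals are 95% and, like the floors, cover counting error only. Patterns were compared by r of log2(normalized reads + 50).

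Experiments 1 to 3, inferred from the dates and days in the titles, mark a shared transfer date. Deviations from group means had a median correlation of 0.0204 over 96 pairs of libraries of the same experiment and different groups and -0.0089 for different experiments. The experiment was used as a block in an alternative. No library was a repeated deposit, as chi-square over its degrees of freedom was 4.73 or more in all 51 pairs within groups. The further alternatives were DESeq2 1.42.0, library totals, no filter, all 26 libraries, only the groups compared, an equal-variance test per gene, no fold limit, omission of the ileum day 4 libraries of experiment 1 and of each library in turn. Named genes were the 10 members, other MMPs past the filter, up to 4 genes per list with the largest change from the graft to day 12, and the 3 genes nearest each member by r. Of the genes so named, 2 are not reported here. The members and lists were chosen with earlier results of these data known.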

Additional observations from a re-analysis of the deposited data

Results flagged for a closer look

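Of 50 sets of libraries examined (1 gene in 1 group of 4 or 6), 9 held a library far from the others by Dixon's test. Its rate of about 1 set in 20 holds for normal values. Counts near 0 can be flagged for 1 read, so the 9 cannot be set against that rate. Mmp2 was 645 normalized reads in ileum day 8 replicate 1, against 212, 228 and 241 in the others. Ileum day 12 replicate 1 had 8626 reads of Mmp9 and 1374 of Mmp13, with others of at most 2506 and 322, and had a macrophage sum of 105772 and a fibroblast sum of 353. Mmp12 was 305 in colon day 12 replicate 2, against at most 54.5, and that library also held the 1 read of Mmp8 found in its group (3.114). Mmp14 was low, at 561, in ileum day 4 replicate 2, a library of experiment 1. Among CX3CR1-DTR libraries, per 10000000 reads on genes, replicate 1 had 237 of Timp1, against 30.8 to 81.8, and 8.17 of Mmp8 (1 read), where the others had 0. Replicate 3 had 6.81 of Mmp7 (1 read), where the others had at most 2.37.

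The colon day 8 library of experiment 1, outside the fit, had 4717 normalized reads of Mmp9, 872 of Mmp12, 2838 of Mmp13 and 1503 of Mmp14, each above the highest colon day 8 library in the fit. Mmp2 was 235 and Timp2 698 there, also above the other 3, whereas Timp3 was 87.2, below them. Its macrophage sum was 84062 and its fibroblast sum 80.5.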

How the results depend on the processing

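Counts of members that passed were within 1.5 times the reported count except as follows. For graft to colon day 12, the equal-variance test gave 4 in place of 8, without Mmp9 (adjusted p = 0.0635), Mmp12 (0.243), Mmp13 (0.0606) and Timp2 (0.25). Within the limit of 1.5 times, that test also lost Mmp7 (0.197), Mmp12 (0.0505) and Timp2 (0.165) on ileum day 4 and Timp2 (0.193) on ileum day 8. Calls against the graft were gained for Mmp7 on colon day 12 with DESeq2 (log2 change 4.40, adjusted p = 0.0212) and for Timp2 on colon day 4 with only the groups compared (0.75, adjusted p = 0.0125). For colon minus ileum on day 4 (1 reported), library totals, all 26 libraries, only the groups compared and the equal-variance test gave 0, DESeq2 2, the experiment as a replicate block 2, omission of the ileum libraries of experiment 1 gave 4, and leaving out each library 0 to 3. On day 8 (5) and day 12 (6) the equal-variance test gave 2 each, and leaving out each library gave 4 to 6 and 3 to 6, with 3 on day 12 without ileum day 12 replicate 1. By the equal-variance test Mmp2, Mmp8, Mmp9 and Mmp14 lost their calls on day 8, where Timp3 gained one (adjusted p = 0.0251). On day 12 Mmp8 (0.101), Mmp9, Mmp14 and Timp2 (0.111) lost theirs. For colon day 12 to CX3CR1-DTR (4), the equal-variance test gave 2, without Mmp9 (adjusted p = 0.233) and Timp3 (0.124). Leaving out each library gave 2 to 4, with 2 without colon day 12 replicate 2 or 3. Scaling to macrophage markers, added after the data were seen, gave 2 on each of the 3 days, Mmp7 lower in colon and 1 gene higher (Mmp2 on day 4, Mmp12 on days 8 and 12), while the median of all genes moved to 1.75, 2.25 and 2.06. The block gained Mmp9 on day 4 and Timp3 on day 8 and changed no other call of a member. Some directions reversed. Mmp2 on day 4, reported at -0.03, was 0.08 with totals, 0.00 without the filter, 0.01 by the equal-variance test, and -0.44 to 0.24 when each library was left out, above 0 without colon replicate 1 or 2 or ileum replicate 1 or 4 (0.03, 0.24, 0.19 and 0.04). Mmp12 on day 4 was 0.30 without experiment 1 and -1.82 to 0.22 over libraries left out, with 0.22 without ileum replicate 2. On day 8 it was -0.27 to 1.41, with -0.27 without colon replicate 2, and on day 12 -1.73, -0.15 and -0.17 without colon replicate 2, ileum replicate 2 or ileum replicate 3. Mmp13 was 1.59 on day 8 with all 26 libraries and -2.01 to 0.10 on day 12 over libraries left out, with 0.10 without ileum replicate 1. Timp1 in CX3CR1-DTR colon was -0.10 to 0.76, with -0.10 without replicate 1. Under macrophage scaling, days 4, 8 and 12 gave 1.93, 0.82 and 0.75 for Mmp2, 0.74, 0.89 and 0.92 for Mmp14, 1.33, 1.38 and 1.27 for Timp2, 1.28, 0.69 and 1.08 for Timp3, 0.83 and 1.34 for Mmp13 on days 8 and 12, and 0.39 for Mmp12 on day 4. These reversals go with that move of all genes. The cause of the other changes was not tested. Depth limits the low genes: 1 count was worth 1.17 to 9.22 normalized reads, so Mmp8 after engraftment, Mmp7 in colon and Timp1 rest on few reads.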
